A study of Mus musculus with 20 samples.

Results

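Potassium channel genes were taken as the protein-coding genes whose GRCm38 symbol begins with Kcn, without Kcnab3, Kcnc1, Kcnc2, Kcns3, Kcnj8, Kcnj10 and Kcne2. This gave 87 of the 94 protein-coding Kcn genes, in tables of 46078 genes. Their RNA was measured by bulk RNA sequencing in 20 libraries, 5 in each of 4 groups: peri-infarct and contralateral tissue of mice given vehicle, and the same regions of mice given HPBCD. All groups came from C57BL/6J wild-type male mice aged 18 months, 7 weeks after a distal middle cerebral artery occlusion combined with hypoxia (DH stroke), so the contralateral tissue is from a brain with a stroke and not from an unoperated one. HPBCD (hydroxypropyl-beta-cyclodextrin, a ring-shaped sugar that binds cholesterol) was injected subcutaneously at 4 g/kg 3 times a week for 6 weeks from 1 week after stroke, and vehicle was sterile PBS. The peri-infarct piece was cut next to the infarct after the infarct had been removed, and each piece is a mixture of cells and of brain regions. No gene in these tables checks the treatment independently. The sources used here leave it in doubt whether the vehicle and HPBCD labels of the peri-infarct libraries are the right way round. The treatment is given as labelled, and an exchange of these labels would turn the direction of the comparison between treatments in peri-infarct tissue and change which peri-infarct libraries belong to which region comparison and to the interaction.

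Potassium channels let potassium leave the cell, set the resting potential and end the action potential. The voltage-gated subunits (Kcna to Kcnd, Kcnh and Kcnq, with the modulatory Kcnf, Kcng, Kcns and Kcnv) open on depolarization. The calcium- or sodium-activated subunits (Kcnma, Kcnn and Kcnt) follow intracellular ions, and Kcnu was grouped with them here. The inward rectifiers (Kcnj) include the channels opened by G proteins and closed by ATP, and the two-pore domain channels (Kcnk) carry background current. Auxiliary subunits (Kcnab, Kcne, Kcnip, Kcnmb and the regulator Kcnrg) form no pore and change the gating or the traffic of the pore-forming ones. In brain, most of these genes are known from neurons, and some from microglia, astrocytes, smooth muscle and epithelium.

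The pore-forming members share a filter in the pore, whose codons are shown for members that the comparisons below turn on. The filter signature, a serine or threonine, any residue, a glycine, a tyrosine, phenylalanine or leucine, and a second glycine, was searched in the longest coding sequence of each member in GENCODE M21. All 72 pore-forming members held it and none of the 15 auxiliary members did. It occurred at 2 positions in all 14 two-pore domain members and at 1 position in 56 others. Kcna6 and Kcnh2 held a match with leucine outside the usual place as well. In the stretches below, written 5′ to 3′ along the coding strand, capitals mark the codons of the glycine, the middle residue and the second glycine.
Kcna2, on chromosome 3 at chr3:107101146-107115005 (GRCm38, plus strand): atgacaactgtaGGCTATGGAgacatg
Kcnc4, at chr3:107438303-107459552 (minus strand): atgacaacgcttGGCTATGGGgacatg
Kcnf1, at chr12:17172100-17176888 (minus strand): atgaccacagtgGGCTATGGTgacatc
Kcnh7, at chr2:62693414-63184287 (minus strand): ctaaccagtgtaGGATTTGGAaatgtg
Kcnj9, at chr1:172320501-172329318 (minus strand): gagaccaccatcGGCTATGGGcaccgg
Kcnk3, at chr5:30588170-30625271 (plus strand), first pore: atcaccaccatcGGCTATGGTcatgcg
Kcnk3, second pore: ctcaccaccatcGGCTTCGGCgactat
Kcnk5, at chr14:20140057-20181809 (minus strand), first pore: atcaccaccatcGGTTATGGCaatgtg
Kcnk5, second pore: atctccaccattGGCTTTGGGgacttt
The middle codon is tyrosine in Kcna2, Kcnc4, Kcnf1, Kcnj9 and the first pore of Kcnk3 and Kcnk5. It is phenylalanine in Kcnh7, as in the other 7 Kcnh members, and in the second pore of Kcnk3 and Kcnk5. Kcnf1 carries the full signature although its subunit is known to need another family for a working channel.

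The libraries held 14445021 to 22171627 counts assigned to genes. Of the 87 members, 75 had at least 10 counts in at least 5 libraries and were tested. The 12 that did not were Kcna10, Kcna7, Kcne1, Kcne3, Kcnh8, Kcnj1, Kcnk15, Kcnk16, Kcnk18, Kcnk7, Kcnmb3 and Kcnv2, of which Kcnk16 had 0 counts in every library. Of those tested, 9 were under 10 counts in at least 1 library (Kcng3, Kcnj13, Kcnj15, Kcnj5, Kcnk5, Kcnmb1, Kcnn4, Kcnq1 and Kcnrg). Kcnj15 reached 10 counts in 7 libraries, 5 of them HPBCD peri-infarct, and so passed only through the group where it was high. Kcnn4 reached 10 counts in 11 libraries, 10 of them peri-infarct, and passed only through that tissue. Both stand in the counts of members called, and their own values are given without a test. Libraries are numbered 1 to 5 within each group, and their values are listed in that order. The exons of 25 members overlap another gene on the opposite strand, and those of Kcnk4 and Kcnab2 one on the same strand. The strand setting of the counting is not given in the sources used here, so values of members such as Kcna6, Kcnh7, Kcnj3, Kcnj13, Kcnk2, Kcnk4, Kcnma1, Kcnmb4 and Kcnn2, with more than 500 shared bases, are uncertain to that degree. Some libraries stood apart in markers of other regions. Vehicle contralateral 1 held a summed 3278 CPM (counts scaled to the library size) of 7 striatal markers, against 186.5 to 273.1 CPM in the other 4 of its group. Choroid plexus markers summed to 637.1 CPM in HPBCD contralateral 3 and 682.6 CPM in HPBCD peri-infarct 3, and hippocampal markers to 686.7 CPM in HPBCD peri-infarct 2, each the highest of its group. Calls lost without these 4 libraries are named in each comparison. Neuron, astrocyte and oligodendrocyte markers were present in every group.

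Per length, Kcnab2, an auxiliary subunit of the Kcna channels, had the highest level among members. Levels per length are given in RPKM, CPM divided by the length of the exons in kilobases. Kcnab2 stood at 99.2 ± 8.52 RPKM (SD, n = 5) in vehicle contralateral, 74.1 ± 14.2 in vehicle peri-infarct, 114 ± 3.64 in HPBCD contralateral and 61.9 ± 33.7 in HPBCD peri-infarct libraries. After it came Kcnj4, a strong inward rectifier, at a mean of 57.5 RPKM over the 20 libraries, and Kcnk1, a two-pore channel, at 48.4 RPKM. Kcna1, a Kcna channel of axons, was at 44.3 RPKM. Kcnj3 at 38.7 RPKM and Kcnj9 at 37.7 RPKM encode subunits of the channels that G proteins open. Kcnip3 at 35.3 RPKM and Kcnip2 at 29.7 RPKM bind the Kcnd channels. Kcnh3 at 28.4 RPKM and Kcnf1 at 24.3 RPKM completed the first 10. The order is that of the means, and from Kcnk1 to Kcnj9 each member lay within 1 SD of the next in vehicle contralateral tissue, where Kcnk1 was at 53.8 ± 5.80, Kcna1 at 52.3 ± 9.02, Kcnj3 at 50.1 ± 8.51 and Kcnj9 at 47.7 ± 4.44 RPKM.

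**Figure D1:**
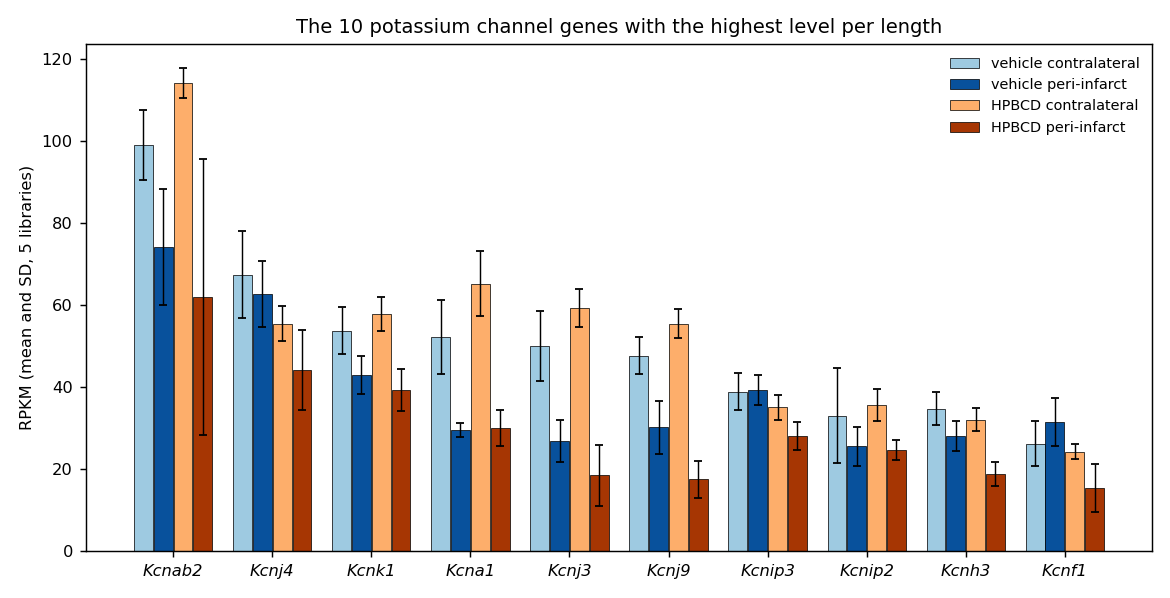
Mean RPKM with SD over 5 libraries in each of the 4 groups for the 10 members with the highest mean over 20 libraries. Kcnab2 is highest in every group, and its SD in HPBCD peri-infarct tissue (33.7 RPKM) is the largest drawn for it, library 2 there lying far above the other 4.

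The first question was how the tissue next to the infarct differed from the contralateral tissue in vehicle mice. There 20 members were lower and 7 higher in peri-infarct tissue (adjusted p under 0.05), of 75 tested. Of all 16857 genes tested, 9.23% were lower and 10.2% higher, 19.4% in either direction. The axonal channels Kcna1 and Kcna2 and the modulatory Kcng4 fell, as did the G protein-gated Kcnj3 and Kcnj9 and the background channels Kcnk3 and Kcnk4. The small conductance calcium-activated Kcnn3, the auxiliary Kcne1l and the two-pore Kcnk6 rose. The median log2 fold change over the 75 was -0.12, and over all genes 0.017. Without the 4 libraries that stood apart, Kcnh2 and Kcnk1 (adjusted p = 0.0631 and 0.0597) lost their calls. So did Kcnj15, which is among the 7 counted as higher. In 16 members all peri-infarct libraries lay below all contralateral ones and in 4 above, against 6.38% and 6.62% of all genes. Striatal markers summed to 316.6 to 1853 CPM (median 950.5) in peri-infarct and 186.5 to 3278 CPM (median 238.4) in contralateral libraries of vehicle mice. None of the 7 was called, and their part in these differences was not tested.

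Kcng4, a modulatory subunit at a low level, was at 8.37, 9.98, 6.35, 3.43 and 9.26 CPM in vehicle contralateral libraries 1 to 5 and at 2.91, 2.62, 1.53, 1.51 and 0.814 CPM in the peri-infarct ones. This was the largest fall among the members called (log2 fold change -2.01, SE 0.36, adjusted p = 0.00446, edgeR). Every peri-infarct value was below every contralateral one. Kcna1, of axons, was at 293, 252, 230.4, 188 and 286 CPM and 153, 138, 137, 132 and 146 CPM (log2 fold change -0.84, SE 0.11, adjusted p = 0.00161), its peri-infarct libraries lying close together. The G protein-gated Kcnj3 was at 218, 331, 265, 227 and 265 CPM contralaterally and 154, 176, 105, 131 and 133 CPM in peri-infarct tissue (log2 fold change -0.92, SE 0.14, adjusted p = 0.00279). Kcns1, a modulatory subunit of Kcnb channels, fell from 46.6 ± 7.20 to 25.6 ± 4.02 CPM (SD, n = 5), a log2 fold change of -0.88. The mechanically gated background channel Kcnk4 fell by 0.94 on the log2 scale (SE 0.21) and the acid-sensitive Kcnk3 by 0.78 (SE 0.16).

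Among the 7 that rose, Kcng1, a modulatory subunit, gave the clearest separation of the groups, with 8.66 to 17.4 CPM contralaterally and 26.9 to 41.2 CPM next to the infarct (log2 fold change 1.22, SE 0.19, adjusted p = 0.00267). Kcnn3, a small conductance channel opened by calcium, was at 21.2, 13.2, 13.3, 16.3 and 14.8 CPM and 26.0, 25.1, 34.5, 23.4 and 27.3 CPM (log2 fold change 0.77, SE 0.15, adjusted p = 0.00591). Kcne1l was at 2.12 to 5.504 CPM and 5.27 to 17.1 CPM, so that its groups overlapped slightly (log2 fold change 1.47, SE 0.36, adjusted p = 0.0155). Kcnk6, at 5.56 to 8.54 and 7.08 to 19.3 CPM, lost its call without vehicle peri-infarct 4, contralateral 2 or contralateral 5 (adjusted p 0.063, 0.0516 and 0.0589). Kcnd3, a channel of A-type current bound by Kcnip subunits, rose by 0.46 (SE 0.13, adjusted p = 0.0294), with an adjusted p of 0.0504 when the animal was kept as a block and 0.0515 to 0.0675 without each of 6 libraries left out in turn. Kcnn4, a calcium-activated channel known from blood-derived cells and microglia, was low, with 4, 9, 12, 2 and 2 counts contralaterally and 29, 22, 20, 21 and 15 counts in peri-infarct libraries. Kcnj15 had 0, 1, 1, 0 and 0 counts contralaterally and 3, 3, 6, 80 and 3 counts next to the infarct. Its high value is a single library, vehicle peri-infarct 4, and with 2 contralateral counts in all no fold is given.

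In the libraries labelled HPBCD, the same region comparison called 39 members lower and 14 higher, where 23.5% of all genes were lower and 29.9% higher, 53.4% in all. The median log2 fold change of the members was -0.45, against 0.037 over all genes. All 7 tested Kcnh genes had a negative difference and 5 of them were called. All 4 Kcnip genes were lower, and so were both Kcnb, both Kcns and both Kcnt genes. Of the 12 auxiliary genes tested, 7 fell and 4 rose, and of the 10 two-pore genes 4 fell and 4 rose. Without the 4 libraries that stood apart, the calls of Kcnf1, Kcnip3, Kcnj4, Kcnj16 and Kcnu1 were lost (adjusted p = 0.0736 to 0.221). In 30 members the peri-infarct libraries lay below all contralateral ones and in 10 above, against 17.7% and 23.7% of all genes.

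**Figure D2:**
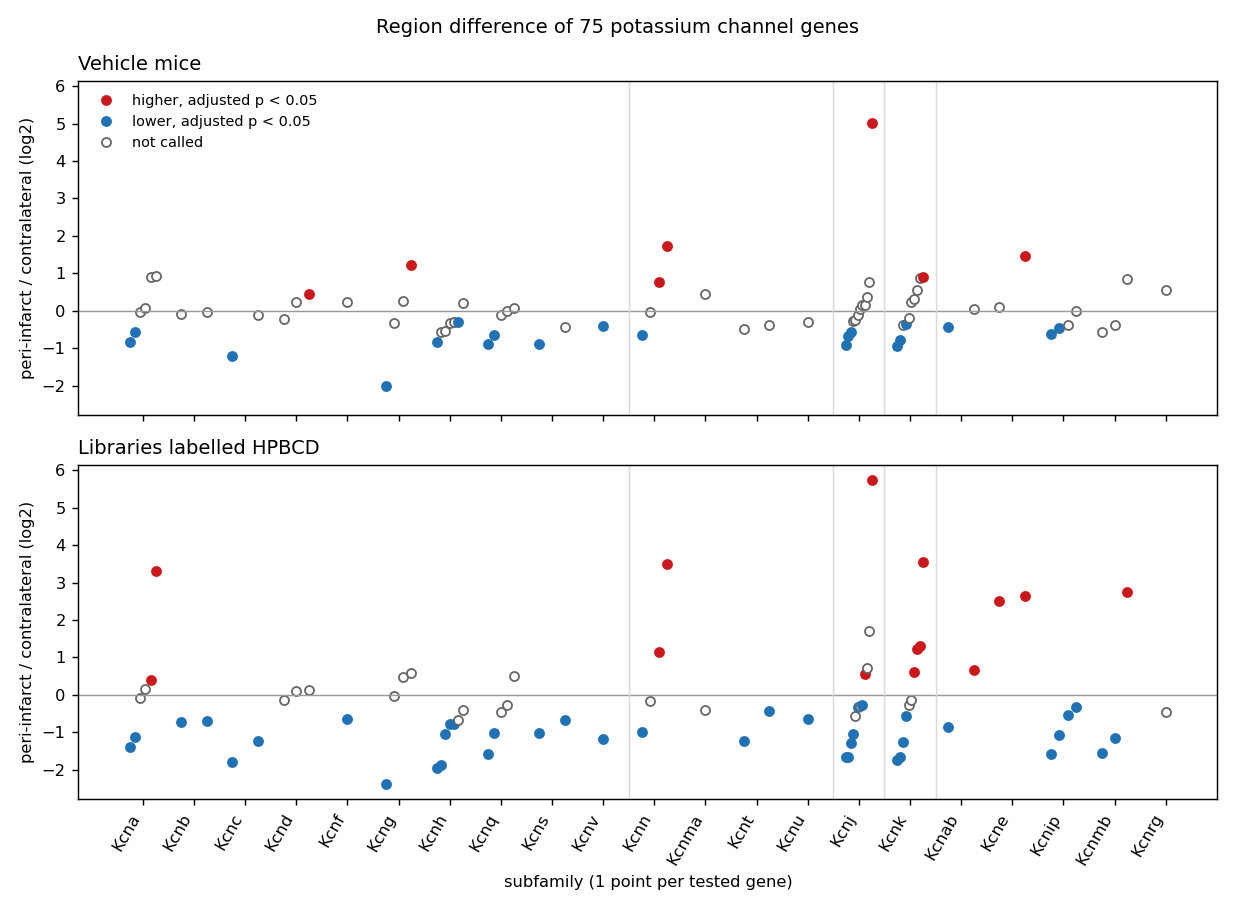
Log2 ratio of peri-infarct to contralateral tissue for the 75 tested members, by subfamily, in vehicle mice (top) and in libraries labelled HPBCD (bottom), where 1 point is 1 gene and colour gives the call at an adjusted p of 0.05. Blue points (lower) number 20 in the top panel and 39 in the bottom one. The highest Kcnj point in the top panel is Kcnj15, whose contralateral libraries held 2 counts in all.

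The falls in these libraries covered most of the voltage-gated class, in which 18 of 33 tested members were lower and 2 higher. Kcnh7, a channel of the ERG type, was at 145, 215, 177, 200.2 and 147 CPM in HPBCD contralateral libraries and 48.4, 74.5, 37.8, 19.3 and 49.4 CPM in peri-infarct ones, with no overlap (log2 fold change -1.94, SE 0.28, adjusted p = 8.37e-05). Kcnh5, of the EAG type, was at 5.84, 15.4, 15.3, 19.3 and 8.35 CPM and 3.79, 3.05, 2.28, 3.04 and 5.17 CPM (log2 fold change -1.88, SE 0.31, adjusted p = 2.63e-04). Its regions were separate but close, at 5.17 and 5.84 CPM. Kcng4 fell by 2.37 on the log2 scale (SE 0.29). It was highest among peri-infarct libraries in number 2, at 4.11 CPM, and fell by 2.85 with the 4 libraries that stood apart left out. Kcna2, which sets the threshold of axons with Kcna1, was at 293, 361, 339, 389 and 262 CPM and 126, 173, 111, 87.7 and 131 CPM, every contralateral value being higher (log2 fold change -1.38, SE 0.18, adjusted p = 3.28e-05). The A-type channel genes Kcnd1, Kcnd2 and Kcnd3 were not called, with log2 values between -0.14 and 0.13.

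Among inward rectifiers, the G protein-gated pair fell together. Kcnj3 was at 330.1, 287, 301, 288 and 339 CPM contralaterally and 88.0, 158, 83.9, 52.3 and 99.6 CPM in peri-infarct tissue (log2 fold change -1.67, SE 0.23, adjusted p = 6.08e-05). Kcnj9 was at 234, 237, 221, 262 and 236 CPM and 96.3, 73.0, 69.2, 46.3 and 89.6 CPM (log2 fold change -1.67, SE 0.16, adjusted p = 3.83e-06). Neither gene overlapped between the regions. Kcnj11, the pore of the channel closed by ATP, fell by 1.28 (SE 0.17) from a level of 19.2 ± 1.73 CPM (SD, n = 5). Of the background channels, Kcnk3 was at 42.8, 43.8, 46.3, 46.5 and 41.6 CPM and 16.2, 11.8, 16.7, 8.23 and 16.6 CPM, and no peri-infarct library reached the contralateral range (log2 fold change -1.66, SE 0.16, adjusted p = 3.92e-06). Kcnk4 fell by 1.75 and Kcnk12 by 1.24. Of the auxiliary genes, Kcnip1 was at 27.97, 31.9, 29.7, 34.4 and 32.1 CPM and 14.47, 9.44, 9.11, 7.57 and 11.9 CPM (log2 fold change -1.57, SE 0.15, adjusted p = 3.65e-06). Kcnmb2 and Kcnmb4, the neuronal subunits of the large conductance channel, fell by 1.55 and 1.14, while its pore gene Kcnma1 was not called (log2 -0.39, adjusted p = 0.360).

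Those that rose were mostly low in contralateral tissue. Kcnk5, an acid-sensitive two-pore channel known from epithelium and lymphocytes, was at 0.849, 0.858, 2.07, 0.533 and 0.903 CPM in HPBCD contralateral libraries and 10.01, 6.04, 14.6, 20.6 and 9.34 CPM in peri-infarct ones (log2 fold change 3.54, SE 0.38, adjusted p = 7.40e-06). Kcne4, an auxiliary subunit of Kcna and Kcnq channels, was at 1.25, 1.01, 3.11, 0.762 and 1.24 CPM and 6.73, 6.85, 11, 12.4 and 5.03 CPM (log2 fold change 2.52, SE 0.36, adjusted p = 7.48e-05). Both genes had their highest contralateral value in library 3, and no library overlapped between the regions. That library held the highest choroid plexus and fibroblast marker sums of its group. The fibroblast sum was 78.54 CPM there and 22.05 to 37.51 CPM in the others. The part of either in these values was not tested. Kcna5, known from smooth muscle and microglia, was at 0.749, 1.01, 0.759, 1.37 and 0.847 CPM and 10.5, 2.59, 10.2, 9.5 and 14.46 CPM (log2 fold change 3.32, SE 0.38, adjusted p = 1.40e-05). Kcnmb1, the smooth muscle subunit of the large conductance channel, was at 0.3996, 1.11, 0.207, 1.22 and 0.734 CPM and 3.75, 3.70, 6.59, 3.92 and 6.85 CPM (log2 fold change 2.76, SE 0.37, adjusted p = 4.30e-05). In Kcna5 the peri-infarct library 2 was nearest to the contralateral range, and the regions of Kcnmb1 did not overlap. Kcnn4 had 3, 5, 2, 3 and 0 counts contralaterally and 45, 31, 40, 22 and 47 counts next to the infarct. Kcnj15 had 0, 1, 10, 3 and 0 and 188, 45, 307, 301 and 105 counts. Library 3 held 10 of its 14 contralateral counts. Kcnk13, a two-pore channel of microglia, was at 5.89 to 7.59 CPM and 12.8 to 19.1 CPM (log2 fold change 1.22, SE 0.13, adjusted p = 9.43e-06). Kcne1l, Kcnk6 and Kcnn3 rose by 2.65, 1.30 and 1.16. Kcnab1 and Kcna4 rose by 0.67 and 0.41 on the log2 scale. Both calls were lost with all 4 groups in 1 fit (adjusted p = 0.0639 and 0.138), and that of Kcna4 also with no filter on low counts (adjusted p = 0.0536). The summed striatal markers were 197.2 to 237.9 CPM contralaterally and 628.8 to 1938 CPM next to the infarct in the same libraries, and all 7 were called higher, their part in these rises not being tested. In vehicle contralateral 1, the library with the most striatal marker RNA, Kcnab1 was at 244 CPM and Kcna5 at 11.5 CPM, each above the other 4 of its group.

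Promoters were read beside these changes. RefSeq promoters, 250 bases before to 50 after the start (GRCm38.p6), matched 63 of the 87 members by symbol, and the first listed promoter of each gene was searched on both strands for 5 motifs. The GC box was searched as GGGCGG. The TATA box was searched as TATAAA. The E-box, which reads the same on both strands, was searched as CACGTG. The cyclic AMP response element, likewise palindromic, was searched as TGACGTCA, and TGACG, its first part, was searched on its own. The E-box was in 5 of the 63 (7.94%) and in 7.24% of 27025 promoters. The 5 were Kcne4, Kcnk5, Kcnn4, Kcnj2 and Kcnh4, and the first 4 were among the 13 matched members higher in HPBCD peri-infarct tissue, while 0 of the 26 matched members that were lower held it. These members were called with 29.9% and 23.5% of all genes, and the counts are a description. Kcnn4, among the 4, passed the count filter only through peri-infarct tissue. Among the other motifs, the GC box was in 53.8% of both the higher and the lower matched members. The TATA box was in 7.69% of the higher and 3.85% of the lower ones, and TGACG in 7.69% and 23.1%. The GC box was in 49.2% of the members and 35.9% of all promoters, the TATA box in 4.76% and 14.2%, the full response element in 0 members and 1.88%, and its first part in 23.8% and 21%. The promoters of Kcnk5 and Kcne4, the pair whose rise differed between treatments, and of Kcnc4, which fell, are printed 5′ to 3′ with matches of any of the 5 motifs on either strand in capitals.
Kcnk5, chr14:20181733-20182032 (minus strand): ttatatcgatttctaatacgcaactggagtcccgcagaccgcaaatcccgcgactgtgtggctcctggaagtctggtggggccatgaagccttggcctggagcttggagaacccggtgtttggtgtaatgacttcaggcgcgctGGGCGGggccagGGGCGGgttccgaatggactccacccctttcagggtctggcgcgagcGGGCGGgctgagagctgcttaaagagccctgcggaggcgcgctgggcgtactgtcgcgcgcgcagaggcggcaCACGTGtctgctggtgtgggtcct
Kcne4, chr1:78816661-78816960 (plus strand): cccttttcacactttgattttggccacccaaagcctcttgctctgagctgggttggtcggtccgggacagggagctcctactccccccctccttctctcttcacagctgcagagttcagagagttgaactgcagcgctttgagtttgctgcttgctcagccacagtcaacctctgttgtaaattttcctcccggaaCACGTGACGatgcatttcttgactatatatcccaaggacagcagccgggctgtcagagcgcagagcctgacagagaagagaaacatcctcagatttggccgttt
Kcnc4, chr3:107458849-107459148 (minus strand): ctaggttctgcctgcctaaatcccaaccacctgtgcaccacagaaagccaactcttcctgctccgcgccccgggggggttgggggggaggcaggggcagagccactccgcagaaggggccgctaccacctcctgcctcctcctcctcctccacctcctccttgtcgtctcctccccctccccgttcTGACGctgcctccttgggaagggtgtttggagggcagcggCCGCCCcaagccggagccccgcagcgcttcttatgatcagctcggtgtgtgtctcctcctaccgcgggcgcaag
Kcnk5 holds 3 GC boxes and 1 E-box. Kcne4 holds 1 E-box, and 1 TGACG that overlaps it. Kcnc4 holds 1 GC box and 1 TGACG. A match describes these letters and is no measured binding site.

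The region comparison in vehicle mice and that in mice labelled HPBCD share no library. Of the 75 members, 25 were called in both, against 17.8% of all genes. All 25 had the same direction, as did 2998 of the 2999 genes called in both. Kcng1 and Kcnd3 were called in vehicle mice alone, 28 members in the HPBCD libraries alone, and 20 in neither, against 1.66%, 35.6% and 44.9% of all genes. In 64 of the 75 the log2 value lay farther from 0 in the HPBCD libraries, as it did in 78.5% of all genes. The difference itself was tested as the interaction of region and treatment over the 20 libraries, with no term for the animal. It called 11 members lower and 2 higher, where 4.35% and 4.99% of all genes were called (9.34% together), and in each of the 13 the region difference was farther from 0 in the HPBCD libraries.

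**Figure D3:**
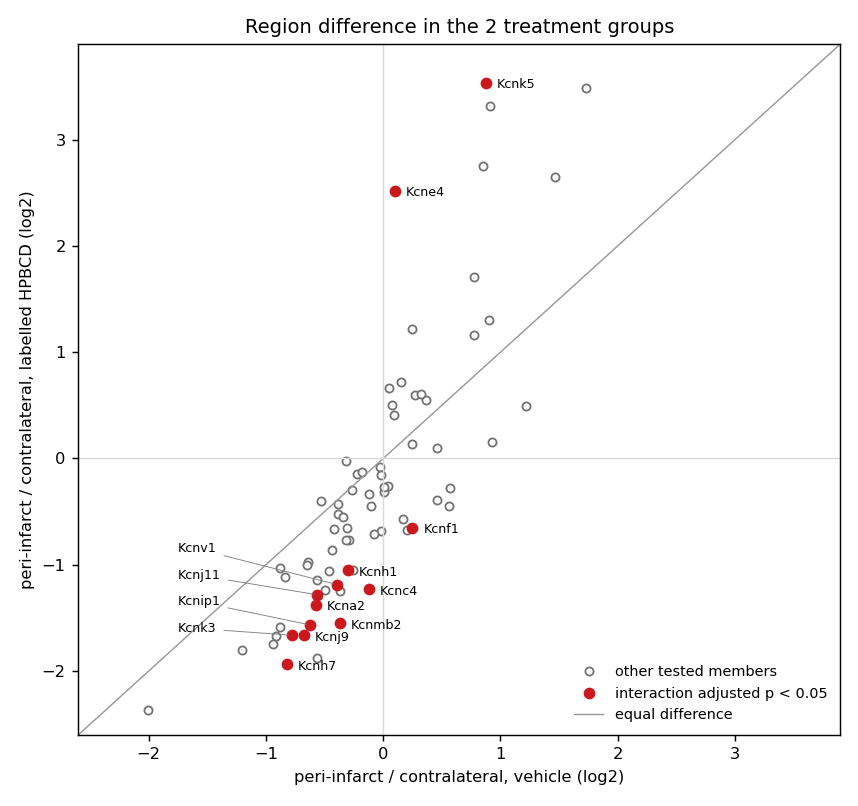
Log2 ratio of peri-infarct to contralateral tissue in vehicle mice (x axis) and in libraries labelled HPBCD (y axis) for 74 tested members, with Kcnj15 not drawn, its vehicle value resting on 2 contralateral counts. Red points are the 13 members whose interaction passed, among which Kcnk5 and Kcne4 lie above the line of equal difference and the other 11 below it.

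Kcnc4, a channel of fast repolarization, was at 61.9, 87.8, 93.7, 100.3 and 93.6 CPM in vehicle contralateral, 83.4, 97.5, 65.7, 70.8 and 89.2 in vehicle peri-infarct, 89.6, 86.2, 85.9, 92.4 and 74.2 in HPBCD contralateral and 55.8, 24.7, 41.9, 20.9 and 38.9 CPM in HPBCD peri-infarct libraries. The 5 HPBCD peri-infarct values lay below all 15 others (interaction -1.13, SE 0.28, adjusted p = 0.0231). The call was lost with the 4 libraries that stood apart left out (adjusted p = 0.0609). Kcnf1, a modulatory subunit of Kcnb channels in cortical neurons, was at 103, 104, 125, 167 and 128, 134, 161, 117, 152 and 191, 115, 125, 117, 122 and 101 and 116, 53.3, 75.2, 42.9 and 82.3 CPM in the same order of groups. Its region difference in vehicle mice was not called (log2 0.25, adjusted p = 0.263) and its HPBCD peri-infarct values lay below the vehicle peri-infarct ones, overlapping the HPBCD contralateral range (interaction -0.92, SE 0.28, adjusted p = 0.0454). That call was lost in 16 of the 20 fits that left out 1 library, and without the 4 libraries (adjusted p = 0.154). Kcnip1 had interaction -0.96 (SE 0.20, adjusted p = 0.0165), with 22.6, 34.2, 26.8, 25.6 and 33.9 CPM in vehicle contralateral and 20.01, 20.6, 16.4, 19.7 and 17.2 CPM in vehicle peri-infarct libraries, above the HPBCD values given earlier for the same region.

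Kcna2 fell in both treatments but by more in the HPBCD libraries, from 243, 273, 237, 250.2 and 256 CPM to 184, 173, 159, 171 and 169.8 CPM in vehicle mice (interaction -0.83, SE 0.19, adjusted p = 0.0178). The vehicle regions did not overlap. Kcnj9 likewise was at 174, 216, 198, 212 and 222 CPM and 132, 154, 82.2, 135 and 144 CPM in vehicle mice (interaction -1.01, SE 0.23, adjusted p = 0.0184). Kcnk3 was at 33.7, 42.1, 47.9, 34.8 and 43.3 CPM and 23.9, 31.3, 15.8, 20.9 and 27.3 CPM there (interaction -0.90, adjusted p = 0.0317). Kcnh7, Kcnmb2, Kcnv1, Kcnh1 and Kcnj11 had interactions of -1.14, -1.21, -0.81, -0.77 and -0.74. The call of Kcnh7 was lost in 13 of the 20 fits that left out 1 library, that of Kcnj11 in 15, and that of Kcnk3 in 6. Kcnh1, Kcnv1 and Kcne4 lost theirs in 3, 2 and 4 of them. With the animal as a block the call of Kcnj11 was lost as well (adjusted p = 0.0709). The opposite direction was seen in Kcnk5, which was at 1.16, 1.31, 1.19, 0.435 and 1.03 CPM and 2.40, 0.513, 1.53, 2.88 and 2.20 CPM in vehicle mice, so that the regions overlapped there (interaction 2.64, SE 0.59, adjusted p = 0.0179). Kcne4 also overlapped, at 1.21, 4.798, 0.889, 2.34 and 1.33 CPM and 1.84, 1.64, 3.11, 3.58 and 1.29 CPM in vehicle mice (interaction 2.40, SE 0.62, adjusted p = 0.0259). With the 4 libraries that stood apart left out, 4 members were called lower and 2 higher, while over all genes the calls went from 734 to 300 lower and from 841 to 556 higher. Of the 13 calls, those of Kcna2, Kcnh7, Kcnk5 and Kcne4 were kept. The other 9 were lost, at adjusted p = 0.0512 (Kcnmb2), 0.0523 (Kcnip1), 0.0555 (Kcnj9), 0.0609 (Kcnc4), 0.0614 (Kcnv1), 0.0721 (Kcnj11), 0.0811 (Kcnk3), 0.0874 (Kcnh1) and 0.154 (Kcnf1).

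**Figure D4:**
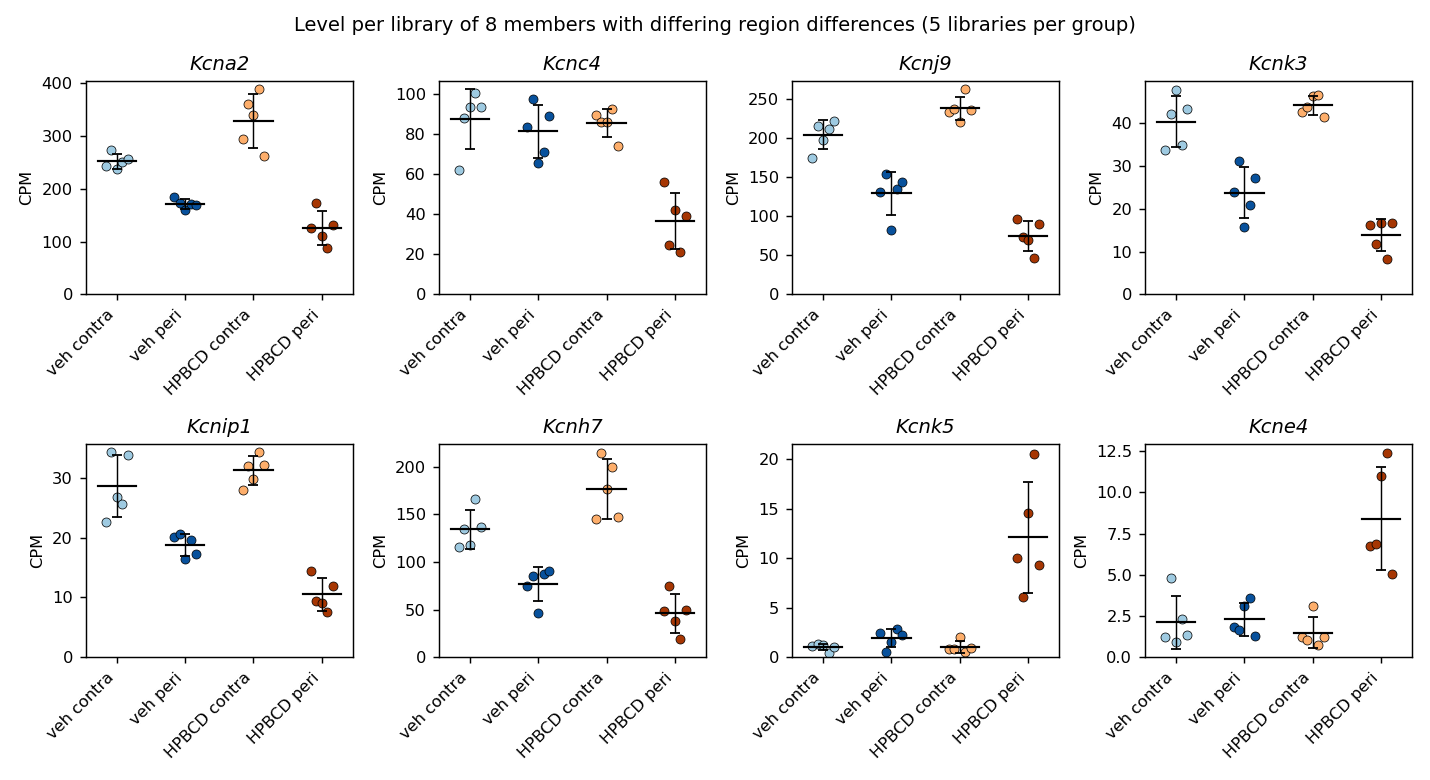
CPM in each of the 20 libraries for 8 members called by the interaction, with the mean and SD of each group of 5. Kcna2, Kcnc4, Kcnj9, Kcnk3, Kcnip1 and Kcnh7 are lowest, and Kcnk5 and Kcne4 highest, in HPBCD peri-infarct tissue.

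A further question was whether tissue labelled HPBCD differed from vehicle tissue of the same region. In peri-infarct tissue 15 members were lower and 6 higher, where 8.48% and 12% of all genes were (20.5% together). In 8 members the HPBCD libraries lay below all vehicle ones and in 4 above, against 5.83% and 7.25% of all genes. This direction rests on the labels in doubt, and the comparison shares its libraries with those above. The 15 were 10 voltage-gated genes, the inward rectifiers Kcnj4 and Kcnj9, the two-pore Kcnk3 and the auxiliary Kcnip1 and Kcnip3. Of the 33 voltage-gated genes tested none was called higher. Kcnc4 fell by 1.16 (SE 0.24, adjusted p = 0.0143), Kcng1 by 1.07 (SE 0.20, adjusted p = 0.0129) and Kcnf1 by 1.03 (SE 0.24, adjusted p = 0.0184). Kcng1, which had risen next to the infarct in vehicle mice, was at 26.9, 31.0, 41.2, 28.1 and 34.8 CPM in vehicle and 23.4, 11.6, 16.3, 11.1 and 15.04 CPM in HPBCD peri-infarct libraries. Kcnh3, of the ELK type, was at 163, 187, 171, 156 and 129.9 CPM and 135, 93.3, 99.7, 97.1 and 117 CPM (log2 fold change -0.58, SE 0.12, adjusted p = 0.0159), and Kcnip3 at 143, 157, 142, 122 and 134 CPM and 111, 98.7, 100, 80.3 and 108 CPM (log2 fold change -0.49, SE 0.10, adjusted p = 0.0155). Kcnb2, Kcnd3, Kcnh1, Kcnh2, Kcnh6, Kcnv1, Kcnip1, Kcnj4, Kcnj9 and Kcnk3 were lower by 0.46 to 0.99. In the 10 fits that left out 1 library, the call was lost in 8 for Kcnd3 and Kcnh6, 7 for Kcnb2, 6 for Kcnh1 and Kcnh2, 5 for Kcnj4 and Kcnk3, 4 for Kcnj9 and 1 for Kcnf1 and Kcnv1. Without the 4 libraries that stood apart, Kcnd3, Kcnf1, Kcnh1, Kcnh2, Kcnh3, Kcnh6, Kcnj4, Kcnj9 and Kcnk3 lost their calls (adjusted p = 0.0504 to 0.119).

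Of the 6 that were higher, Kcnk5 led by adjusted p (log2 fold change 2.65, SE 0.41, adjusted p = 0.0128), followed by Kcne4 (log2 fold change 1.87, SE 0.33, adjusted p = 0.0129) and Kcnmb1 (log2 fold change 2.07, SE 0.43, adjusted p = 0.0149). Kcnmb1 was at 2.25, 1.69, 0.904, 0.283 and 0.766 CPM in vehicle peri-infarct libraries, all below the HPBCD values. Kcnj13, known from the apical face of the choroid plexus, was at 0.664, 0.0513, 0.226, 0.943 and 0.0958 CPM in vehicle and 1.14, 1.93, 2.38, 1.22 and 0.958 CPM in HPBCD peri-infarct libraries (log2 fold change 1.91, SE 0.57, adjusted p = 0.0395). Its call was lost in 7 of 10 fits that left out 1 library and with the 4 that stood apart left out (adjusted p = 0.143). The summed choroid plexus markers were 6.23 to 76.1 CPM in the vehicle and 26.9 to 682.6 CPM in the HPBCD peri-infarct libraries. Kcnk13 was called as well, at a log2 fold change of 0.63, and lost the call in 6 of the 10 fits. Kcnj15, the other of the 6, had 80 counts in vehicle peri-infarct 4 and 3 to 6 in the other 4 of that group. Without HPBCD peri-infarct 2, in which Kcnab2 stood at 677 CPM against 225.6 to 301.4 in the others, 28 members and 2511 of all genes were lower, against 15 and 1430 with it. Without HPBCD peri-infarct 3, 5 members and 201 genes were.

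In contralateral tissue no member was called by edgeR, and neither was any of the 16857 genes (0.0%). At an unadjusted p under 0.05 there were 13 members and 1329 genes, and the smallest adjusted p of a member was 0.473. DESeq2 called 53 genes and no member. Only for Kcnab2 did all HPBCD libraries lie above all vehicle ones, and no member lay below, against 0.902% and 0.54% of all genes. The median log2 value of the members was 0.065. For Kcna2, whose contralateral range was 237 to 273 CPM in vehicle and 262 to 389 CPM in HPBCD libraries, the difference was 0.38 (SE 0.097, adjusted p = 0.473).

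Some members with a high level were not called in any comparison. Kcnk2, a mechanically gated background channel, was at 68.0 ± 19.2 CPM in vehicle contralateral, 60.6 ± 14.1 in vehicle peri-infarct, 61.7 ± 4.45 in HPBCD contralateral and 56.4 ± 4.63 CPM in HPBCD peri-infarct tissue (SD, n = 5). In the same order Kcnd2, the main A-type channel of dendrites, was at 97.5 ± 26.8, 84.4 ± 15.6, 96.7 ± 5.26 and 86.9 ± 28.04 CPM. A missed threshold does not show that the levels were equal.

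Summed over the 87 members, the libraries held 4521 to 4985 CPM in vehicle contralateral, 3646 to 4203 in vehicle peri-infarct, 4837 to 5474 in HPBCD contralateral and 2407 to 3943 CPM in HPBCD peri-infarct tissue. The neuron markers (8 of 8 detected) summed to 9396 to 10890, 5782 to 8024, 11040 to 11860 and 3286 to 5950 CPM in the same order. Of those 8, 4 were lower in peri-infarct tissue of vehicle mice, 8 in the HPBCD libraries and 6 between the peri-infarct groups. In bulk tissue, fewer cells of a type and less RNA per cell cannot be told apart. The 5 endothelial markers gave 0 called in vehicle mice and 1 higher in the HPBCD libraries. The 5 fibroblast markers summed to 13.2 to 93.4 CPM in vehicle contralateral, 45.1 to 255.5 in vehicle peri-infarct, 22.1 to 78.5 in HPBCD contralateral and 292.2 to 957.2 CPM in HPBCD peri-infarct tissue. The 6 microglial markers were all higher next to the infarct in both treatments, and the 6 oligodendrocyte markers in the HPBCD libraries (0 of 6 in vehicle mice). Of the 5 pericyte and smooth muscle markers 1 was higher in vehicle mice and 3 in the HPBCD libraries, of the 5 macrophage markers 2 and 5, of the 5 ependymal markers 1 and 5, and of the 6 reactive astrocyte markers 6 and 6. Of the 5 cortical markers 1 was lower in vehicle mice and 4 in the HPBCD libraries. No fibroblast or neuron marker was at 0 throughout a group. The part of these shifts in the members' differences was not tested.

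**Figure D5:**
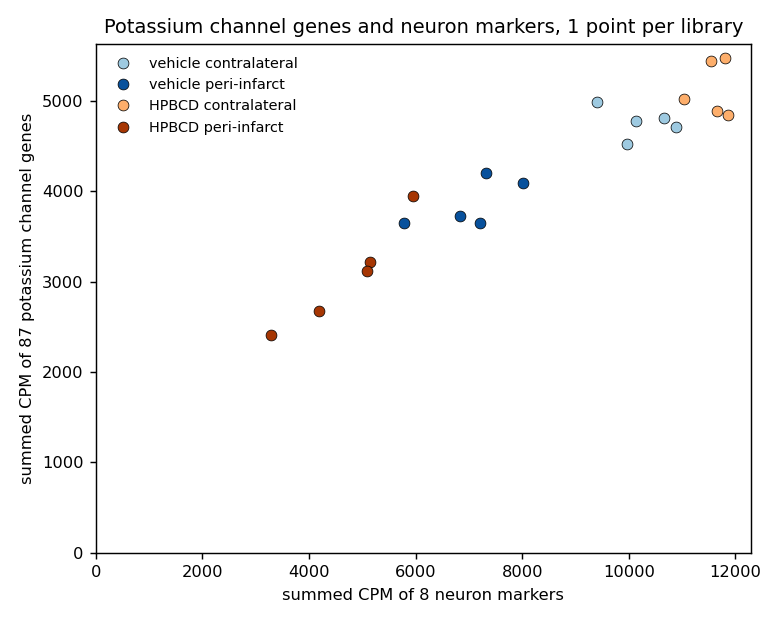
Summed CPM of the 87 members (y axis) against summed CPM of 8 neuron markers (x axis), 1 point per library, coloured by group. The 10 peri-infarct libraries lie below the 10 contralateral ones on both axes, HPBCD peri-infarct 4 being lowest at 2407 and 3286 CPM.

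Genes that work with potassium channels or move potassium but carry other names were counted from a list of 27, of which 26 were tested. In vehicle mice 7 were lower and none higher next to the infarct, in the HPBCD libraries 13 were lower and 6 higher, and between the peri-infarct groups 5 were lower and 2 higher. Over all genes 9.23% were lower and 10.2% higher in vehicle mice, 23.5% and 29.9% in the HPBCD libraries, and 8.48% and 12% between the peri-infarct groups. Lrrc55, an accessory of the large conductance channel, fell by 1.38 in vehicle mice (adjusted p = 0.00460) and by 2.25 in the HPBCD libraries (adjusted p = 1.27e-06). Abcc8, the sulfonylurea receptor that pairs with Kcnj11, fell by 0.82 and 1.76. The potassium chloride exporter of neurons, Slc12a5, was lower (log2 -0.74) and the importer Slc12a2 higher (log2 0.81) in the HPBCD libraries. Amigo1 and Slc12a5 were among those called in the interaction.

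For comparison of families, the 12 tested voltage-gated sodium channel genes (Scn) gave 3 lower and 1 higher in vehicle mice and 5 lower and 4 higher in the HPBCD libraries. The 23 tested calcium channel genes (Cacn) gave 5 lower and 1 higher, then 10 lower and 3 higher. These counts stand against the same shares of all genes, and no difference between families was tested. Of the 7 Kcn genes outside the set 6 were tested, and with them the counts became 22 lower and 7 higher in vehicle mice and 43 lower and 14 higher in the HPBCD libraries.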

How the data were processed

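Bulk RNA sequencing libraries (stranded mRNA, paired reads of 75 bases) of 20 dissected brain pieces were analysed. The authors deposited raw counts per gene. Per the submitters' processing notes, reads were converted with bcl2fastq 2.19, trimmed with Trimmomatic 0.32, aligned with STAR 2.5.2b to GRCm38 and counted with HTSeq, and compared with DESeq2. The HTSeq version, annotation release and strand setting are not given in the sources used here. Summary rows without a gene did not enter the library totals. Reads with no feature were 4.39 to 9.5% of a library's total, ambiguous reads 3.94 to 8.03% and multiply aligned ones 16.58 to 24.3%.

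Groups came from the labels, with 5 libraries each. Genes with at least 10 counts in at least 5 libraries (16857) were tested with edgeR 4.0.16 in R 4.3.3 (quasi-likelihood, TMM factors), 1 fit per comparison over its 10 libraries and 1 over 20 for the interaction. The p-values were Benjamini-Hochberg adjusted over all 16857 genes at 0.05, and set each difference against the spread between these libraries. These main fits had no term for the animal, so both regions of an animal entered as separate libraries. SE is the log2 fold change divided by the root of the F statistic. CPM values, scaled from counts, used TMM factors over the 20 libraries, and RPKM the summed exon length in GENCODE M21. A count of 3 corresponds to 0.135 to 0.208 CPM, which covers counting error only. Steps were tested on simulated data.

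Alternatives were DESeq2 1.42.0, limma 3.58.1 (voom with quality weights), other factors and filters, all groups in 1 fit, the animal as a block, and each library left out. Leaving out 4 libraries together was chosen after seeing the data. Members and lists were chosen with earlier results of these data known. The members named in sentences were, per comparison, up to 10 that rose and 10 that fell most among those called with a mean of at least 1 CPM, the 10 highest by RPKM and those called by the interaction. Other called members were added after their values were seen. The values of some genes are not reported here. Same-numbered libraries of a treatment carry 1 animal identifier in the deposited names. The mean correlation of their deviations was 0.111, with 5 of 10 pairs over 0.1 and 4 of 10 closest to their own number.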

Additional observations from a re-analysis of the deposited data

Results flagged for a closer look

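Among 55 members called in a comparison or among the 10 with the highest RPKM, 220 groups of 5 libraries were searched for a library far from the other 4 (Dixon's criterion at 95%). This gave 15 such values, where chance alone would give about 11. Vehicle contralateral 1, the library with striatal markers, held Kcna5 at 11.45 CPM (others 0.837 to 2.448), Kcnab1 at 244.2 (59.49 to 80.3), Kcns2 at 36.87 (20.94 to 22.85) and Kcnj16, low, at 25.04 (42.92 to 45.69). HPBCD peri-infarct 2, the library with hippocampal markers, held Kcnab2 at 676.7 CPM (225.6 to 301.4) and Kcng4 at 4.11 (1.094 to 1.916). HPBCD contralateral 3 held Kcne4 at 3.106 CPM (0.7616 to 1.249) and Kcnk5 at 2.07 (0.5331 to 0.903). It was the library of its group with the most choroid plexus and fibroblast marker RNA. In other libraries, Kcnd3 stood at 74.8 CPM in vehicle contralateral 4 (44.8 to 51.7 in the others) and 58.28 in HPBCD contralateral 2 (43.64 to 46.86). Kcnk4 was at 19.36 CPM in vehicle contralateral 2 (13.74 to 15.12). Kcnip4 was at 30.51 CPM (48.13 to 54.11) and Kcnk1 at 114.0 (90.12 to 93.45) in vehicle peri-infarct 3. Kcnj15 was at 3.771 CPM in vehicle peri-infarct 4 (0.1437 to 0.339), and Kcnh2 at 13.26 in HPBCD peri-infarct 4 (22.2 to 23.69). The part of each library's tissue makeup in these values was not tested.

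The region difference differed between the treatments by the interaction test in 13 members. The log2 interaction was 2.642 for Kcnk5 and 2.402 for Kcne4. It was -1.206 for Kcnmb2, -1.14 for Kcnh7, -1.125 for Kcnc4, -1.006 for Kcnj9, -0.96 for Kcnip1, -0.9172 for Kcnf1, -0.9029 for Kcnk3, -0.8307 for Kcna2, -0.81 for Kcnv1, -0.7663 for Kcnh1 and -0.737 for Kcnj11.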

How the results depend on the processing

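No called member reversed its direction under any alternative tried. Of the members called, 45 of 53 in the HPBCD region comparison, 18 of 27 in the vehicle one, 7 of 21 between the peri-infarct groups and 2 of 13 in the interaction (Kcna2 and Kcnk5) stayed past the threshold in every alternative that gave a value. Between the peri-infarct groups, members called lower numbered 29 with limma voom and 24 with all 4 groups in 1 fit, against 15. All genes called lower numbered 2723 and 2323 there, against 1430. In the interaction, DESeq2 called 17 lower and 4 higher, limma voom 30 lower, a minimum of 10 counts in every library left 1 higher, and leaving out the 4 libraries that stood apart left 4 lower, against 11 and 2. Over all genes DESeq2 called 1169 lower and 1350 higher, limma voom 2163 lower, the minimum left 838 higher and the omission of the 4 libraries 300 lower, against 734 and 841. The cause was not tested. With the animal as a replicate block, 22 members were lower and 7 higher in vehicle mice, 41 and 15 in the HPBCD libraries and 12 and 3 in the interaction, beside 1444 and 1631, 4034 and 5044, and 816 and 1006 of all genes, and Kcnd3 and Kcnip4 (vehicle, adjusted p = 0.0504 and 0.054) and Kcnj11 (interaction, 0.0709) lost their calls. Leaving out 1 library at a time gave 3 to 10 members higher and 15 to 20 lower in vehicle mice, 14 to 15 and 35 to 43 in the HPBCD libraries, 3 to 8 and 5 to 28 between the peri-infarct groups, 0 and 0 contralaterally, and 1 to 5 and 5 to 22 in the interaction. Over all genes the same fits gave 1135 to 2127 higher and 826 to 1778 lower, 4550 to 5096 and 3611 to 4424, 563 to 2775 and 201 to 2511, 0 and 0, and 325 to 1720 and 189 to 1402. In vehicle mice 4 were higher without contralateral 2 and 3 without contralateral 5. Between the peri-infarct groups, 3 were higher without vehicle 1, vehicle 2, HPBCD 3 or HPBCD 4. The lower ones there were 7 without vehicle 1 or 2, 9 without vehicle 4, 8 without vehicle 5, 28 without HPBCD 2, 5 without HPBCD 3 and 9 without HPBCD 4. In the interaction, the higher ones were 1 without vehicle peri-infarct 2, HPBCD peri-infarct 3 or HPBCD contralateral 2, 4 without vehicle contralateral 4, and 5 without vehicle peri-infarct 3 or HPBCD peri-infarct 2. The lower ones were 7 without vehicle peri-infarct 1, vehicle contralateral 1 or HPBCD contralateral 4, 5 without vehicle peri-infarct 2, 18 without vehicle peri-infarct 3, 22 without HPBCD peri-infarct 2, and 6 without HPBCD peri-infarct 3 or HPBCD contralateral 2. Depth limits the members with few counts, among them Kcnj15, Kcnn4, Kcnj13 and Kcnmb1.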
